A study of Mus musculus with 20 samples.

Results

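The ISG15 conjugation system was followed across the miR-34a and Tg-SwDI mouse hippocampus by 6 genes. They were chosen by name, with earlier results of these data known. They were Isg15, Uba7, Ube2l6, Herc6, Trim25 and Usp18, and all 6 were among the 39056 genes of the deposited count table and among the 16107 genes that had enough counts to be tested. RNA was sequenced from the left hippocampus of 20 female C57BL/6 mice, aged 12 months when behavioural testing began and about 13 months when tissue was analysed. The 4 groups of 5 mice were miR-34a WT Non-Tg (miR34a+/+ without the transgene), miR-34a KO Non-Tg (miR34a-/- without it), miR-34a WT Tg-SwDI (transgenic, miR34a+/+) and miR-34a KO Tg-SwDI (transgenic, miR34a-/-). Tg-SwDI mice carry human APP with the Swedish, Dutch and Iowa mutations under the Thy1 promoter, so the transgene is expressed in neurons, and the miR-34a KO is present in every cell of the body. No group was treated with an agent, and the labels list 1 library per mouse.

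ISG15 is a small protein built like a tandem of ubiquitin folds, and type I interferon is its best known inducer. Like ubiquitin, it is joined to other proteins by a chain of enzymes. UBA7, the E1, activates it, UBE2L6, the E2, carries it, and an E3 ligase hands it to a target. In mice HERC6 is the main ISG15 ligase, and TRIM25, better known as the ubiquitin ligase of the RNA sensor RIG-I, can also act as one. USP18 removes ISG15 from its targets and, separately from that activity, binds the interferon receptor chain IFNAR2 and dampens interferon signaling. In brain these genes are known as part of the interferon response of microglia, and other brain cells can express them too.

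The sequences through which interferon and miR-34a could in principle reach these genes are given first. Interferon-stimulated genes are typically switched on through an interferon-stimulated response element (ISRE), which the ISGF3 complex binds. The letters GAAA, any 2 bases and GAAA were searched as an ISRE, and the shorter AA, any 2 bases and GAAA, which lies inside it, as an IRF core, on both strands, from 250 bases before to 50 bases after each RefSeq start (GRCm38.p6). An ISRE match was found in 3.44% of 32851 promoters and an IRF core in 23.9%. Isg15 held 3 overlapping ISRE matches, whose first letters lay at positions -78, -72 and -66 from its start. The 150 bases just before that start (chr4:156200819-156200968, minus strand) are shown because this run of repeats was found in Isg15 alone among the members searched, with the bases covered by the ISRE matches in capitals.
Isg15: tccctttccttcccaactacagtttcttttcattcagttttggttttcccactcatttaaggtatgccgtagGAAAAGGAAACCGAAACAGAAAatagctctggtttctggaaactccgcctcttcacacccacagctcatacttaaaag
Uba7 and Trim25 had no ISRE match and 1 IRF core each, on the opposite strand, which is shown in capitals in the 30 bases around it (Uba7, chr9:107975529-107975558, plus strand, and Trim25, chr11:88999388-88999417, plus strand).
Uba7: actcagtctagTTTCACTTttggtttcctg
Trim25: ctcctgttcagTTTCGATTccttcctcgct
The Uba7 stretch lies before the RefSeq start but inside the gene as GENCODE M21 draws it. The Trim25 stretch also lies inside its GENCODE M21 gene, and its match spans the RefSeq start, from position -4 to 4. The windows of Ube2l6 and Herc6 held neither set of letters, and the table of promoters had no entry for Usp18.

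The microRNA deleted in the KO mice is miR-34a-5p (chr4:150068473-150068494, plus strand), shown with its seed, bases 2 to 8, in capitals.
mmu-miR-34a-5p: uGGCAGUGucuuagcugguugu
Of the 6 members, Herc6 alone carried a seed site in its 3'UTR, the part of a transcript where microRNAs usually act. The search counted the complement of the seed (CACTGCC) and also ACTGCCA, which pairs with all but the last base of the seed and ends in an added A. The Herc6 site was of the second, shorter kind, shown in capitals (chr6:57664463-57664469, plus strand), just after base 1548 of a 3'UTR of 1718 bases.
Herc6: ggcctaaaggaaACTGCCAatttgataaaa
By the same search, 19.8% of 21015 mouse 3'UTRs held at least 1 site of either kind, so 1 in 6 members is near the background share. MiR-34a itself was not analysed here, and the KO label was therefore not checked against its target.

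Each library held between 19549622 and 21066868 counts on genes. The transgene label was checked on Thy1, which was at 1905 CPM or more in each of the 10 Tg-SwDI mice and at 769 CPM or less in each of the 10 Non-Tg mice. Neuronal, astrocytic, oligodendrocytic and microglial markers were present in every group, and the T cell and NK cell list was near its floor. Of 11 T cell and NK cell genes only Trac had enough counts to be tested, at 8 to 36 counts in a mouse, and the other 10 had at most 15, a value reached by Cd4. Choroid plexus markers, which come from tissue next to the hippocampus, differed between libraries, their summed level running from 270 to 721 CPM among KO Non-Tg mice and from 306 to 6825 CPM among the others. Genotype was compared within each transgene state and transgene within each genotype, as the design implies. CPM are counts scaled to library size with TMM factors, SD is over 5 mice, and a gene was called a DEG when the adjusted p of edgeR's quasi-likelihood test over all 16107 genes was under 0.05.

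All 6 genes were low-abundance transcripts. Per kilobase of exon, the WT Non-Tg means were 2.16 ± 0.41 CPM for Ube2l6 (SD, n = 5) and 1.86 ± 0.69 CPM for Isg15. Trim25 followed at 1.26 ± 0.36 CPM per kilobase, Herc6 at 0.69 ± 0.05, Usp18 at 0.59 ± 0.31 and Uba7 at 0.41 ± 0.07. Ube2l6 and Isg15 did not differ beyond their spread in this order, and neither did Isg15 and Trim25, Herc6 and Usp18, or Usp18 and Uba7. In KO Tg-SwDI mice the order on the same scale began with Isg15 at 5.81 ± 3.35 CPM per kilobase and Ube2l6 at 4.24 ± 0.67, followed by Usp18 at 2.08 ± 1.09, Trim25 at 1.97 ± 0.29, Herc6 at 1.19 ± 0.39 and Uba7 at 0.81 ± 0.30. The E1 had the lowest mean of the 6 in both groups. The ubiquitin counterparts were far more abundant, with WT Non-Tg means per kilobase of 90.8 CPM for Uba1, the main ubiquitin E1, 25.6 CPM for Ube2l3, the nearest relative of Ube2l6, 18.2 CPM for Herc3 and 366 CPM for the ubiquitin gene Ubb.

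The first comparison asked whether loss of miR-34a goes with a different level of the ISG15 chain in hippocampus that carries the transgene. All 6 genes had a higher mean in KO than in WT mice with the transgene, by 1.29-fold for Trim25 to 2.48-fold for Usp18. All 6 had an unadjusted p under 0.05 in edgeR's fit, beside 3052 of all 16107 genes. After adjustment over all genes only Ube2l6, the E2, was called, 1 of 6 members beside 1.99% of all genes tested (1.48% called higher). DESeq2 called 2 members, beside 733 of all genes tested. The KO Tg-SwDI mice differed widely among themselves, with a coefficient of variation of 57.7% for Isg15 and 52.5% for Usp18 against 20.5% and 26.5% in WT Tg-SwDI mice, and 15.8% for Ube2l6. Thy1, whose promoter drives the transgene, was itself called between these groups, at 2454 to 3318 CPM in KO and 1905 to 2328 CPM in WT mice (log2 fold change 0.37, adjusted p = 0.00416 by edgeR), and its part in the members' differences was not tested.

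The modifier itself, Isg15 (ENSMUSG00000035692, chr4:156199424-156200818, minus strand), was measured at 7.01, 2.19, 5.61, 5.95 and 1.21 CPM in KO Tg-SwDI replicates 1, 2, 3, 5 and 8. In WT Tg-SwDI mice it was at 1.17, 1.94, 1.91, 2.08 and 2.06 CPM. In Non-Tg mice it was at 0.76, 1.24, 2.11, 1.20 and 1.72 CPM in WT and at 1.82, 1.94, 0.82, 0.86 and 0.82 CPM in KO. KO Tg-SwDI replicates 1, 3 and 5 stood above every other mouse of the series, replicate 2 lay just above the highest WT Tg-SwDI mouse, and replicate 8 lay inside the range of the Non-Tg mice. The group means were 4.39 ± 2.53 CPM in KO and 1.83 ± 0.38 CPM in WT Tg-SwDI mice (SD, n = 5). On the log2 scale the difference was 1.27 ± 0.38 (standard error), with an edgeR adjusted p of 0.0881, so Isg15 was not called. Without KO Tg-SwDI replicate 8 the log2 fold change was 1.51 (adjusted p = 0.0154), without replicate 2 it was 1.44 (adjusted p = 0.0370), and DESeq2 called it on all mice (adjusted p = 0.0202). These were the 3 of 21 alternatives that called Isg15, and edgeR's adjusted p reached 0.295 with the replicate number as a block. Without replicate 1 the log2 fold change was 1.04 (edgeR, adjusted p = 0.139). Isg15 lies 6.13 Mb from Mir34a on the same chromosome. None of the 45 genes tested within 1 Mb of Isg15 was called between KO and WT mice by edgeR or DESeq2. The lowest edgeR adjusted p was 0.0979 with the transgene (11 genes at an unadjusted p under 0.05) and 0.559 without it (1 gene). Of all 16107 genes, 3052 with the transgene and 1302 without it had an unadjusted p under 0.05.

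**Figure D1:**
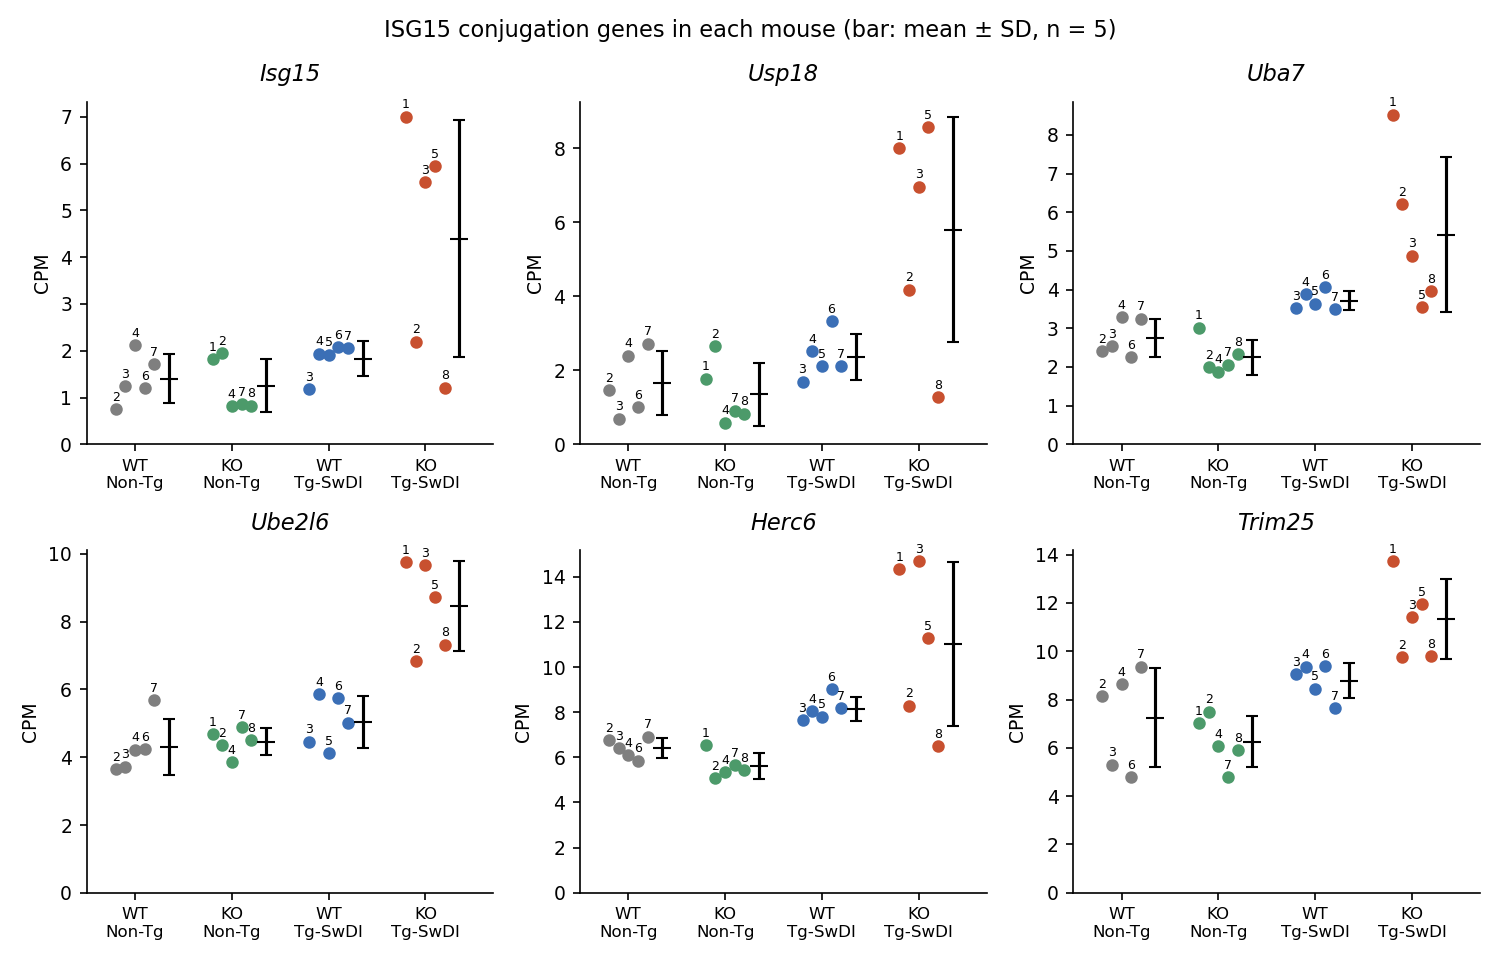
CPM (vertical axes, from 0) of the 6 genes in each of 20 mice, by group, with the replicate number beside each point and the group mean ± SD (n = 5) in black. KO Tg-SwDI replicates 1, 3 and 5 lie above all other mice for Isg15 and Usp18, replicate 8 lies among the Non-Tg mice for both, and for Ube2l6 and Trim25 all 5 KO Tg-SwDI mice lie above all 5 WT Tg-SwDI mice.

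Ube2l6, the E2 of the chain (ENSMUSG00000027078, chr2:84798828-84810335, plus strand), was the member that rose in KO Tg-SwDI mice, relative to WT Tg-SwDI mice, by the test over all genes. It was at 9.75, 6.83, 9.66, 8.72 and 7.32 CPM in KO Tg-SwDI mice and at 4.46, 5.87, 4.12, 5.75 and 5.02 CPM in WT Tg-SwDI mice. Non-Tg mice lay between 3.64 and 5.68 CPM in WT and between 3.86 and 4.89 CPM in KO. Every KO Tg-SwDI mouse, replicate 8 included, was above every mouse of the other 3 groups. The means were 8.46 ± 1.33 CPM and 5.04 ± 0.77 CPM (SD, n = 5), which is 0.75 ± 0.13 (standard error) on the log2 scale, with an edgeR adjusted p of 0.00416. It stayed called in all 21 alternatives run for this comparison, with log2 fold changes of 0.68 to 0.87 and adjusted p between 3.32e-05 and 0.0418.

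Uba7, the E1 (ENSMUSG00000032596, chr9:107975505-107984060, plus strand), was at 8.52, 6.21, 4.88, 3.54 and 3.96 CPM in KO Tg-SwDI mice and at 3.52, 3.88, 3.63, 4.06 and 3.49 CPM in WT Tg-SwDI mice. Its highest value was in replicate 1, as for Isg15, but replicate 2, which was low for Isg15, was second here, and replicates 5 and 8 lay inside the WT range. KO mice exceeded WT mice by 0.55 ± 0.18 (standard error) on the log2 scale, which was not called (edgeR, adjusted p = 0.106). None of the 21 alternatives called it, with adjusted p between 0.0501 and 0.542, and the log2 fold change was 0.33 without KO Tg-SwDI replicate 1 and 0.35 with the replicate number as a block. Gm20661, an annotated gene that overlaps Uba7 on the same strand, held 1 to 8 counts in a mouse where Uba7 held 39 to 180.

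The ligase Herc6 (ENSMUSG00000029798, chr6:57581000-57664632, plus strand) was at 14.3, 8.30, 14.7, 11.3 and 6.50 CPM in KO Tg-SwDI mice and at 7.65, 8.04, 7.81, 9.03 and 8.18 CPM in WT Tg-SwDI mice. Replicates 1, 3 and 5 were again above all WT mice, and replicate 8 was below all of them. The difference was 0.44 ± 0.15 (standard error) on the log2 scale and was not called (edgeR, adjusted p = 0.118). Herc6 was called without KO Tg-SwDI replicate 8 (adjusted p = 0.0115) or replicate 2 (adjusted p = 0.0420), the 2 of 21 alternatives that called it. Without replicate 3 its log2 fold change was 0.32 (edgeR, adjusted p = 0.239). Trim25 (ENSMUSG00000000275, chr11:88999376-89020293, plus strand) was at 13.7, 9.76, 11.4, 11.95 and 9.80 CPM in KO and at 9.06, 9.37, 8.44, 9.37 and 7.65 CPM in WT Tg-SwDI mice. The groups did not overlap, yet the difference of 0.37 ± 0.15 (standard error) on the log2 scale was not called (edgeR, adjusted p = 0.185). Ube2l6 and Trim25 were thus 2 of 6 members with all 5 KO above all 5 WT Tg-SwDI mice, beside 2.04% of all genes tested.

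Usp18, which takes ISG15 off its targets (ENSMUSG00000030107, chr6:121245906-121270917, plus strand), was at 8.0, 4.17, 6.96, 8.56 and 1.27 CPM in KO Tg-SwDI mice. It was at 1.69, 2.51, 2.11, 3.33 and 2.10 CPM in WT Tg-SwDI, at 1.47, 0.69, 2.40, 1.0 and 2.72 CPM in WT Non-Tg and at 1.77, 2.66, 0.58, 0.91 and 0.82 CPM in KO Non-Tg mice. Of the KO Tg-SwDI mice, 4 were above every other mouse of the series and replicate 8 was below every WT Tg-SwDI mouse. With a log2 fold change of 1.31, the largest point estimate among the members, and a standard error of 0.44, Usp18 was not called (adjusted p = 0.122 by edgeR). Without KO Tg-SwDI replicate 8 it was called at 1.56 (adjusted p = 0.0335). This was the 1 of 21 alternatives that called Usp18, and edgeR's adjusted p reached 0.44 with the replicate number as a block. Per kilobase, Usp18 was at 0.34 times the level of Isg15 in the median KO Tg-SwDI mouse, with a range of 0.28 to 0.52, and at 0.35 times it in the median WT Tg-SwDI mouse, with a range of 0.28 to 0.43. The ratio of the deconjugating enzyme to the modifier therefore overlapped between the groups, replicate 8 included at 0.28, while the level of Isg15 spanned 1.21 to 7.01 CPM among the KO Tg-SwDI mice.

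The same comparison in Non-Tg mice asked whether miR-34a loss goes with a difference when the transgene is absent. None of the 6 members was called or had an unadjusted p under 0.05, and none of the 16107 genes was called (0.0%), although 1302 genes had an unadjusted p under 0.05 in the same edgeR fit and DESeq2 called 7 genes and edgeR's exactTest 4, none of them a member. The member log2 fold changes ran from -0.30 for Usp18 to 0.05 for Ube2l6. For Ube2l6 the interval of 2 standard errors, from -0.22 to 0.32, lay below the corresponding interval in Tg-SwDI mice, from 0.49 to 1.01. For Isg15 and Usp18 the intervals in Non-Tg mice were wide, from -1.07 to 0.74 and from -1.35 to 0.76. These 2 genes had 12 to 57 counts in a Non-Tg mouse and coefficients of variation of 37.1% to 63.7% in the Non-Tg groups.

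The difference between those KO effects, the interaction term, was positive for all 6 members and called for none by edgeR, beside 0.608% of all genes. Its unadjusted p was under 0.05 for each member, beside 2821 of all 16107 genes. DESeq2 called 1 member, Ube2l6, beside 482 of all genes tested. The interaction term was 0.70 for Ube2l6 (standard error 0.19, adjusted p = 0.0746 by edgeR). It was 0.83 for Uba7 (standard error 0.27, adjusted p = 0.127 by edgeR) and between 0.58 and 1.61 for the other 4. Leaving out KO Tg-SwDI replicate 8 brought Ube2l6 (adjusted p = 0.0479) and Herc6 (adjusted p = 0.0252) past the threshold, and leaving out replicate 2 brought Ube2l6 (adjusted p = 0.0263). Of 29 alternatives for the interaction, 3 called Ube2l6 and 1 called Herc6. Choroid plexus markers had a median interaction term of 2.64, with none of 12 called. With their level as a covariate, edgeR's interaction term was 0.61 for Ube2l6 (adjusted p = 0.200) and 0.35 for Trim25. The unadjusted p in that fit was 0.0706 for Isg15, 0.102 for Usp18 and 0.0597 for Trim25. For Uba7, Herc6 and Ube2l6 it stayed under 0.05.

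Tg-SwDI mice were next compared with Non-Tg mice of the same genotype. In KO mice all 6 members were higher in Tg-SwDI, beside 20.8% of all genes called and 12.5% called higher. The log2 fold changes were 1.81 for Isg15 (standard error 0.40, adjusted p = 0.00350), 2.10 for Usp18 (standard error 0.47, adjusted p = 0.00423) and 1.27 for Uba7 (standard error 0.19, adjusted p = 2.25e-05), all by edgeR. Ube2l6 rose by 0.92, Herc6 by 0.98 and Trim25 by 0.86 on the log2 scale, with the same test's adjusted p at 0.000272 or below. For Uba7, Ube2l6 and Trim25 all 5 Tg-SwDI mice were above all 5 Non-Tg mice, beside 8.47% of all genes. For Isg15, Usp18 and Herc6 the groups overlapped through replicate 8, the only KO Tg-SwDI mouse below the highest KO Non-Tg mouse. Choroid plexus markers moved with this comparison too, 10 of 12 being called higher with a median log2 fold change of 3.07. With the choroid plexus level as a covariate, Isg15 at 1.54 (adjusted p = 0.0729) and Usp18 at 1.59 (adjusted p = 0.0878) were no longer called. The other 4 members remained called, Trim25 at a log2 fold change of 0.54 (adjusted p = 0.0121) in place of 0.86.

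In WT mice none of the 6 members was called between Tg-SwDI and Non-Tg mice, beside 4.41% of all genes. All 6 log2 fold changes were above 0, from 0.23 for Ube2l6 to 0.50 for Usp18. In edgeR's fit Uba7 (p = 0.0329) and Herc6 (p = 0.0371) had an unadjusted p under 0.05, and neither DESeq2 nor exactTest called any member. Uba7 and Herc6 had all 5 Tg-SwDI mice above all 5 Non-Tg mice, beside 5.1% of all genes. The fit of these 10 WT mice alone called Herc6 (log2 fold change 0.34, adjusted p = 0.0218). In WT Non-Tg mice Trim25 split by mouse, at 8.13, 8.64 and 9.36 CPM in replicates 2, 4 and 7 and at 5.31 and 4.80 CPM in replicates 3 and 6. The summed choroid plexus markers split the same mice, at 3027, 4995 and 6825 CPM against 457 and 306 CPM. In WT Tg-SwDI mice replicate 7 was lowest in both, at 399 CPM of choroid plexus markers and 7.65 CPM of Trim25. In KO Tg-SwDI mice replicate 8 was highest in choroid plexus markers at 5571 CPM and replicate 2 lowest at 416 CPM, and these were the lowest of the group in Trim25. With the choroid plexus level as a covariate, the KO difference of Trim25 in Non-Tg mice moved from -0.21 to 0.05 on the log2 scale and was called in neither fit.

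**Figure D2:**
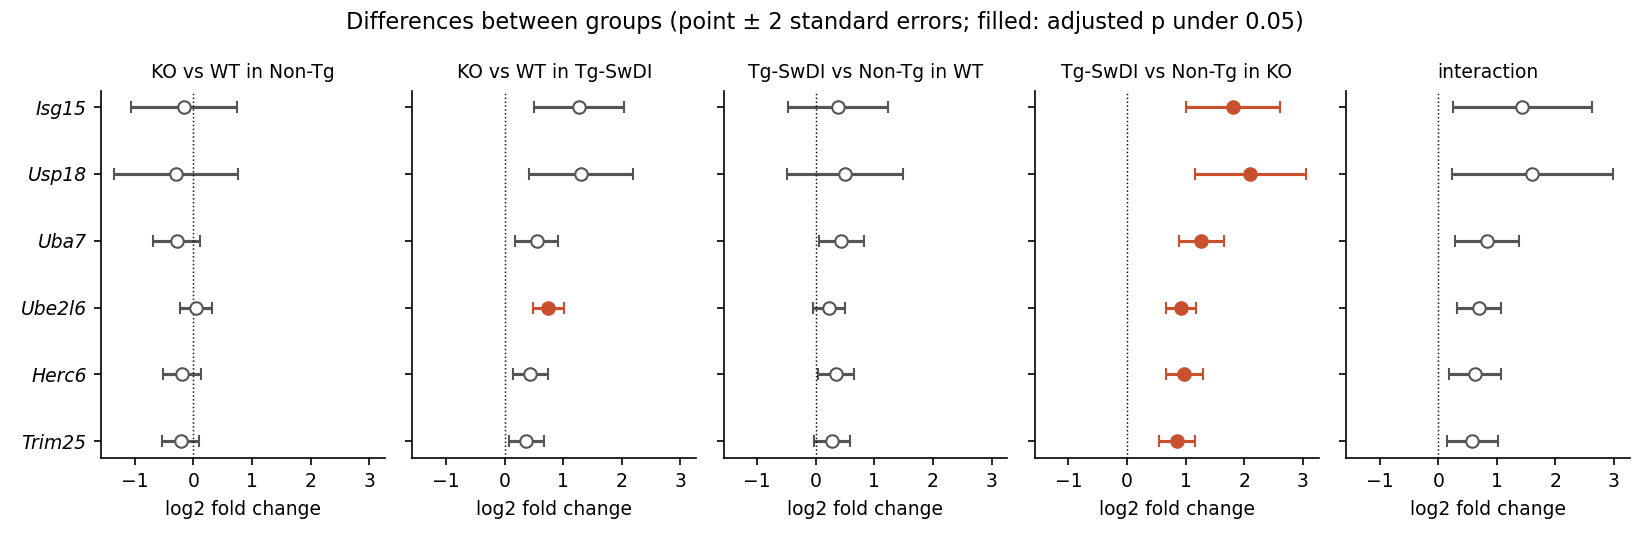
Log2 fold changes (horizontal axes) of the 6 genes in 4 comparisons and in the interaction, with bars of 2 standard errors from edgeR's fit of all 20 mice and filled points for adjusted p under 0.05. Filled points are Ube2l6 for KO against WT in Tg-SwDI mice and all 6 genes for Tg-SwDI against Non-Tg in KO mice, and the widest bars belong to Isg15 and Usp18.

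Since these genes are known from microglia, their levels were set beside 14 microglial markers. In bulk tissue, a larger number of cells of a type cannot be told apart from more RNA per cell. All 14 markers were called higher with the transgene in KO and in WT mice, beside 20.8% and 4.41% of all genes called. Their median log2 fold changes were 1.30 and 0.81. Between KO and WT Tg-SwDI mice edgeR called 5 of the 14, beside 1.99% of all genes, and DESeq2 called 8, beside 733 genes. All 14 markers had a log2 fold change above 0 there, with a median of 0.29. Their summed level was 1290, 1383, 1242, 1103 and 1068 CPM in KO Tg-SwDI replicates 1, 2, 3, 5 and 8, and 860 to 1025 CPM in WT Tg-SwDI mice. Replicate 8 was thus above every WT mouse in microglial markers while it was below 4 of 5 WT Tg-SwDI mice for Isg15 and below all 5 for Usp18 and Herc6. The library of replicate 8 had the lowest TMM factor of the series, 0.90, the next lowest being 0.98 in KO Tg-SwDI replicate 2. It was the highest of the series for Thy1 (3318 CPM), Uba1 (467 CPM) and Ube2l3 (209 CPM). For Ubb it was the lowest (520 CPM), and for Herc3 (156 CPM) it lay inside the range of WT Tg-SwDI mice. Whether a difference of library or dissection plays a part in the low Isg15, Usp18 and Herc6 of replicate 8 was not tested. Replicate 2 was highest in the markers and second lowest in Isg15. Among other cell types, edgeR called 1 of 8 astrocytic markers between KO and WT Tg-SwDI mice, Gfap (0.51, adjusted p = 0.0412). It also called 1 of 8 endothelial markers, Ly6c1 (0.46, adjusted p = 0.00701), and none of 8 neuronal or 8 oligodendrocytic ones. With the transgene in KO mice, Trac was called higher (0.82, adjusted p = 0.0245 by edgeR), beside 12.5% of all genes.

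Each member's log2 CPM was then taken relative to the mean log2 CPM of the microglial markers and compared by exact two-sided permutation tests, 24 in all, whose smallest possible p is 0.00794. Relative to the markers, Ube2l6 differed by 0.42 between KO and WT Tg-SwDI mice, being higher in KO (exact p = 0.0476, adjusted p = 0.163), Isg15 by 0.67 (exact p = 0.167, adjusted p = 0.364) and Usp18 by 0.73 (exact p = 0.167, adjusted p = 0.364). Herc6 at 0.06 and Trim25 at 0.04 were close to 0 on this scale. In the WT mice all 6 members were lower relative to the markers in Tg-SwDI than in Non-Tg, by 0.27 to 0.64, with an exact p of 0.00794 and an adjusted p of 0.0635 for each of Uba7, Ube2l6 and Herc6. In the KO mice Ube2l6 (-0.35, exact p = 0.0159, adjusted p = 0.0952), Trim25 (-0.40, exact p = 0.0317, adjusted p = 0.127), Herc6 (-0.35) and Uba7 (-0.07) had negative differences between Tg-SwDI and Non-Tg on this scale, and Isg15 (0.32) and Usp18 (0.71) positive ones. No test passed after adjustment. Uba7, Ube2l6 and Herc6 in WT mice were already at the smallest possible p, so passing was hardly possible here. In the comparison of Tg-SwDI with Non-Tg in WT mice, 4 members passed without WT Non-Tg replicate 2 or without replicate 6. In KO Tg-SwDI mice 1 member passed against WT Tg-SwDI mice without KO Tg-SwDI replicate 2, and 1 against KO Non-Tg mice without KO Tg-SwDI replicate 5.

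**Figure D3:**
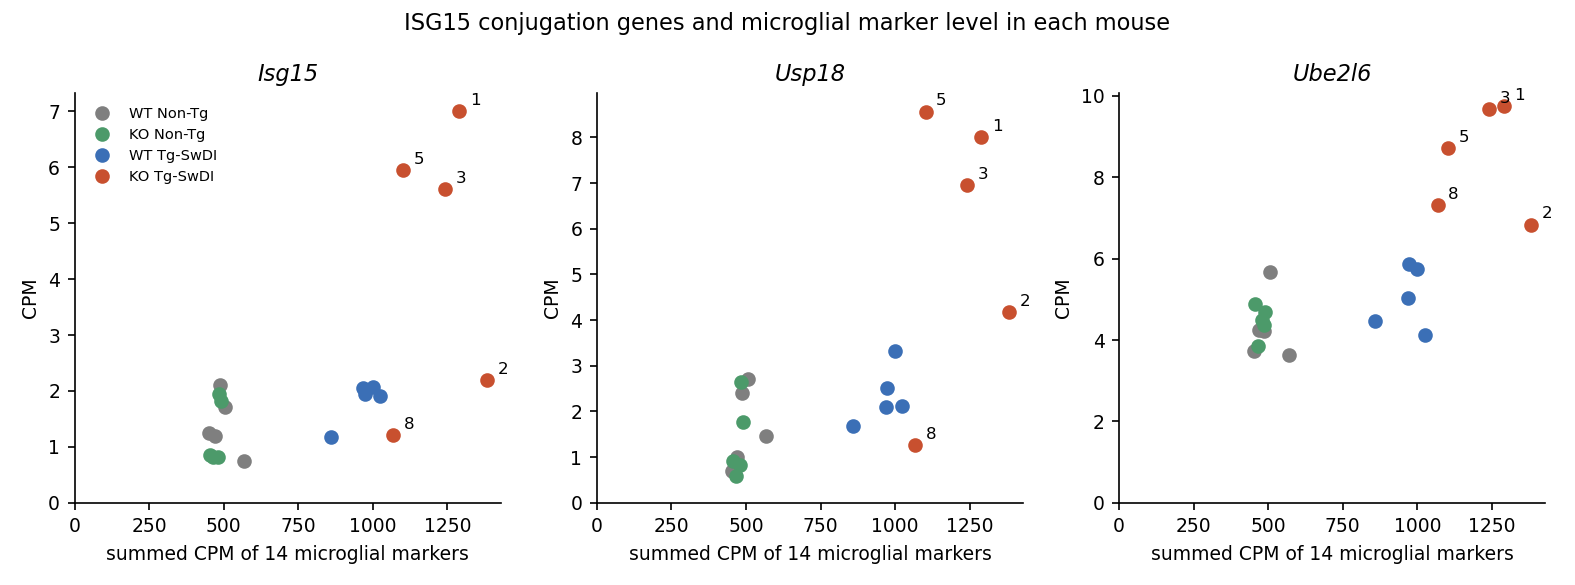
CPM of Isg15, Usp18 and Ube2l6 (vertical axes) against the summed CPM of 14 microglial markers (horizontal axes) in each of 20 mice, colored by group, with KO Tg-SwDI replicates numbered. WT Tg-SwDI mice lie at 860 to 1025 CPM of markers with Isg15 at 1.17 to 2.08 CPM, KO Tg-SwDI replicates 1, 3 and 5 lie far above them in Isg15 and Usp18, and replicates 2 and 8 do not for Isg15.

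How far the members varied together from mouse to mouse was described on deviations from each group's mean, so that differences between groups play no part. By Pearson's r, Isg15 and Usp18 ran together most closely (Pearson's r = 0.856, Spearman's rho = 0.823, n = 20 mice, adjusted permutation p = 0.0063 and 0.00315, r = 0.831 without the 2 farthest mice). By Spearman's rho the closest pair was Usp18 and Trim25 (r = 0.713, rho = 0.830, adjusted permutation p = 0.0104 and 0.00315). Of 15 pairs, 8 passed by Pearson's r and 5 by Spearman's rho, and r ran from 0.366 to 0.856. None of the 5 pairs with Uba7 passed. The count rests on few mice, since it fell to 2 pairs without KO Tg-SwDI replicate 1, 3 or 5 or without WT Non-Tg replicate 7, was 4 without KO Tg-SwDI replicate 2 or 8, and was 0 in the Non-Tg mice alone against 4 in the Tg-SwDI mice alone.

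**Figure D4:**
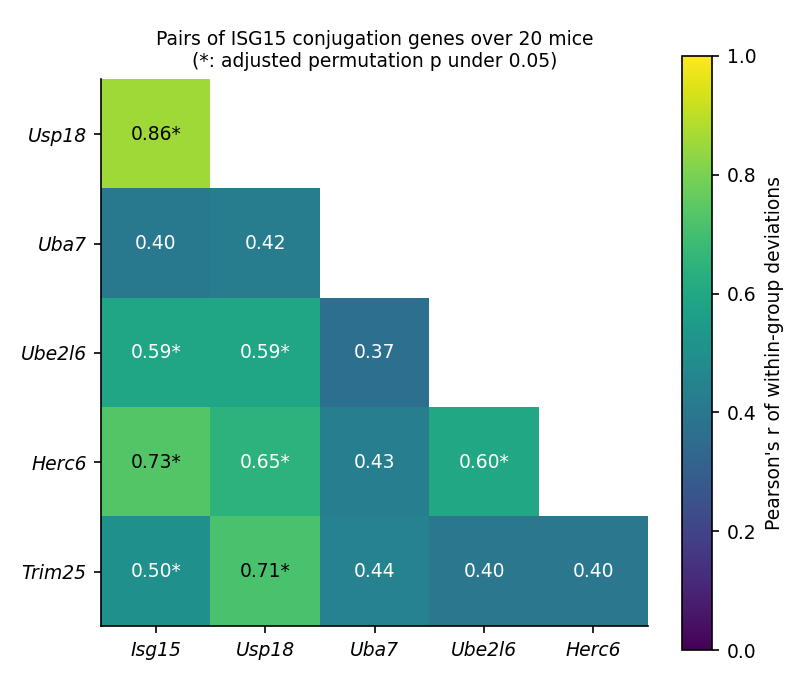
Pearson's r between the within-group deviations of each pair of the 6 genes over 20 mice, as colored squares on a scale from 0 to 1, with stars for adjusted permutation p under 0.05. The pair of Isg15 and Usp18 has the highest value, and no pair with Uba7 carries a star.

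Among all genes tested, those whose within-group deviations were most like each member's over the 20 mice were mostly interferon-stimulated genes for Isg15 (Ifi44 at r = 0.879, Iigp1 at 0.874 and Oasl2 at 0.868) and Usp18 (Mx2 at 0.937, Gbp7 at 0.934 and Ifit3 at 0.927). Trim25 was most like Lgals3bp at 0.970, Tor3a at 0.892 and Bst2 at 0.884. The E1, the E2 and the ligase Herc6 had other neighbors, with Plau at 0.853 for Uba7, Nostrin at 0.777 for Ube2l6 and Cdk2ap1 at 0.897 for Herc6. The next genes were 4930506C21Rik (0.826) and Cwf19l2 (0.824) for Uba7, Stat5b (0.734) and Ms4a7 (0.731) for Ube2l6, and Pacsin3 (0.857) and Tmem208 (0.848) for Herc6. These correlations are a description of 20 shared libraries, picked as the highest among all genes tested. Ifit3 and Mx2 have closely similar copies in the mouse genome, and how reads that match several genes were counted is not given in the sources used here.

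The other genes that act on ISG15 or resemble its machinery were examined next. Of 13 further enzymes and receptor chains for ISG15, 1 was called between KO and WT Tg-SwDI mice, beside 1.99% of all genes tested. It was lower, the deubiquitinase Usp16 at a log2 fold change of -0.26 (adjusted p = 0.0411 by edgeR). The list's median was 0.01. Of 22 ubiquitin genes and enzymes edgeR and DESeq2 called none, and the median was -0.01. Beside 1.99% of all genes called by edgeR, no call in a list of 22 is near the background share. Uba1 was at 0.07, Ube2l3 at 0.11, Herc3 at 0.00 and Ubb at -0.01. An unadjusted p under 0.05 in edgeR's fit was seen for 5 of the 22, beside 3052 of all 16107 genes. Of 18 genes for other ubiquitin-like modifiers and their E1 enzymes, 2 were called, beside the same 1.99% of all genes. Among them was Gabarap, an autophagy modifier, which was higher (0.32, adjusted p = 0.0401 by edgeR). The median of all 16107 genes was 0.00, and that of the 6 ISG15 conjugation genes was 0.65. In KO mice the transgene went with 2 higher and 3 lower calls among the 13 further ISG15 genes, beside 20.8% of all genes called, the former being the integrin chains Itgal (0.61) and Itgb2 (2.07), which form the LFA-1 receptor that free ISG15 can bind and which leukocytes, microglia included, express. Itgb2 was called higher with the transgene in WT mice as well (1.41, adjusted p = 2.82e-07 by edgeR).

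Of 18 genes for proteins known to be modified by ISG15, 6 were called between KO and WT Tg-SwDI mice, all higher, beside 1.48% of all genes called higher, with a median of 0.43. Mx1, a gene of a GTPase family, was at 0.661 to 2.72 CPM in KO and 0.246 to 0.918 CPM in WT Tg-SwDI mice, overlapping. Its log2 fold change was 1.77 (adjusted p = 0.0135 by edgeR). Rsad2, the antiviral enzyme viperin, differed by 1.30 (adjusted p = 0.0409), Eif2ak2, the double-stranded RNA kinase PKR, by 0.68 (adjusted p = 0.0391) and Ifih1, the RNA sensor MDA5, by 0.66 (adjusted p = 0.0315). Most genes of this list that were called are themselves interferon-stimulated. Of 9 genes of the type I interferon receptor, its kinases and the ISGF3 complex, 3 were called higher, beside the same 1.48% of all genes. Their median was 0.40. Irf9, the DNA-binding part of ISGF3, was at 14.4 to 30.2 CPM in KO and 12.9 to 15.5 CPM in WT Tg-SwDI mice (log2 fold change 0.73, adjusted p = 0.0267). Stat2, which recruits USP18 to the receptor, differed by 0.41 (adjusted p = 0.0232). Ifnar2, the receptor chain that USP18 binds, was at 21.4 to 32.2 CPM in KO and 16.6 to 21.0 CPM in WT Tg-SwDI mice, without overlap (log2 fold change 0.40, adjusted p = 0.0250), and its interaction term was called as well (0.57, adjusted p = 0.0402). Microglial markers were also higher in the same mice, as given above, and their part in these differences was not tested.

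**Figure D5:**
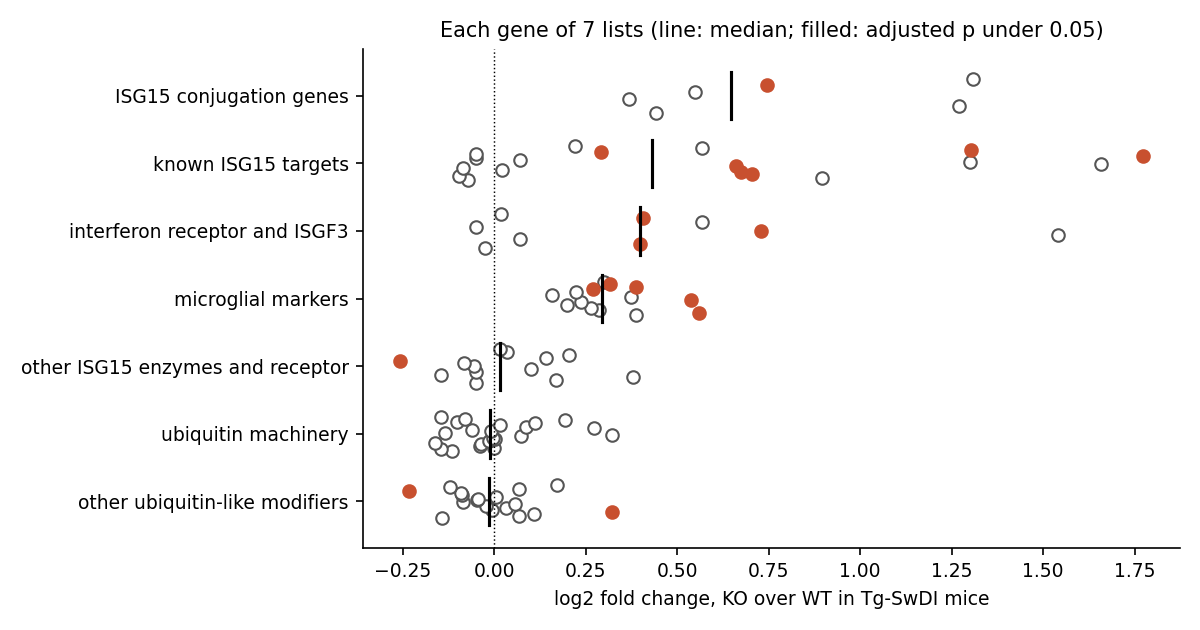
Log2 fold change of KO over WT in Tg-SwDI mice (horizontal axis) for each tested gene of 7 lists, with a line at each list's median and filled points for adjusted p under 0.05. The ubiquitin machinery and the other ubiquitin-like modifiers lie around 0, with medians of -0.01 and -0.01, while the ISG15 conjugation genes lie between 0.37 and 1.31 with a single filled point, Ube2l6.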

How the data were processed

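Stranded mRNA libraries had been aligned by the authors with STAR (mm10) and quantified over ENSEMBL genes by featureCounts, and the deposited values are raw read counts. The strand setting, versions and treatment of reads matching several genes are not given in the sources used here. GENCODE M21 symbols and positions matched 38872 of 39056 identifiers (99.5%). Promoters and miR-34a came from RefSeq tables of GRCm38.p6, and 3'UTRs from GENCODE M21.

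Counts were analysed with edgeR 4.0.16 in R 4.3.3 (TMM, filterByExpr with a minimum count of 10 and a minimum total of 15, robust quasi-likelihood fit of 4 group means, 16 residual degrees of freedom), with Benjamini-Hochberg adjustment over 16107 genes at 0.05. Libraries held 19549622 to 21066868 counts, so counting error weighs most on scarce transcripts. Log2 CPM used a prior count of 2. Correlations were tested by 100000 permutations within groups. On data simulated from these counts for KO against WT Tg-SwDI mice (16107 genes, 200 of them changed), 95% of log2 changes of 1 and 75% of those of 0.5 were called, with 6 unchanged genes called. The changed genes were drawn from all those with a mean CPM above 1, and each gene had the same spread in every group. These shares are therefore not the power for Isg15 and Usp18, which varied most in KO Tg-SwDI mice relative to WT Tg-SwDI mice.

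Groups came from the labels' genotype. The members and lists were chosen with earlier results of these data known. Besides the 6 members, genes were named by rule: the 3 most alike each member, called members of each list (at most 4 by smallest p), Uba1, Ube2l3, Herc3, Ubb and Thy1. The values of 1 called gene are not reported here. Itgal, Itgb2, Trac and Cd4 were named after their values were seen. Alternatives were DESeq2 1.42.0, exactTest, RLE factors, library size alone, no filter, mean CPM of at least 1, the compared groups alone, the replicate number as a block, a choroid plexus covariate, a log2 fold change above 0.1, each mouse left out and, chosen after seeing the data, a correction per library for GC content and gene length.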

Additional observations from a re-analysis of the deposited data

Results flagged for a closer look

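WT Tg-SwDI replicate 3, with Isg15 at 1.17 CPM, stood apart from the other 4 mice of its group, which lay between 1.91 and 2.08 CPM. Its gap to the nearest mouse took 0.82 of the group's range, against a critical value of 0.71 for 5 samples in Dixon's test. This was 1 of 24 sets of 5 mice examined, and chance alone flags about 1 in 20. Without this mouse the log2 fold change of Isg15 between KO and WT Tg-SwDI mice was 1.15 (edgeR, adjusted p = 0.185). The 2 low KO Tg-SwDI mice, replicates 2 and 8, did not pass the same test. The test uses the gap of 1 mouse to the nearest, so 2 low mice can hide each other. It therefore cannot say whether these mice were atypical.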

How the results depend on the processing

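Which of the 6 members were called between KO and WT Tg-SwDI mice depended on 2 KO Tg-SwDI mice and on the tool. The count was 1 in the fit of all mice, 2 by DESeq2 and 1 to 4 with each mouse left out, 3 without KO Tg-SwDI replicate 2 and 4 without replicate 8. The interaction had 0 calls, 1 by DESeq2 and 0 to 2 with each mouse left out. For Tg-SwDI against Non-Tg in WT mice the compared groups alone gave 1 call in place of 0. Members passing relative to microglial markers were 0, and 0 to 4 with each mouse left out in WT mice and 0 to 1 in the other 2 comparisons with any Tg-SwDI mice. Pairs that varied together were 8, 5 by Spearman's rho, 4 in Tg-SwDI mice alone, 0 in Non-Tg mice alone and 2 to 8 with each mouse left out. In Non-Tg mice, where nothing was called, the sign of the KO difference turned with the choroid plexus covariate for Isg15 (0.0407), Usp18 (0.142) and Trim25 (0.0450), without WT Non-Tg replicate 4 for Isg15 (-0.377 to 0.0325 with each mouse left out) and without WT Non-Tg replicate 2 for Ube2l6 (-0.00293 to 0.172). The cause was not tested. Over all genes, the 320 calls between KO and WT Tg-SwDI mice became 733 by DESeq2, 58 in the compared groups alone, 572 with the choroid plexus covariate, 175 after correction for GC content and gene length and 78 to 701 with each mouse left out.

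Replicate numbers are shared by some mice of different groups, but nothing in the labels pairs them, and the correlation of same-numbered mice ran from -0.404 to 0.154. With the replicate number as a block, Ube2l6 stayed called between KO and WT Tg-SwDI mice (log2 fold change 0.87, adjusted p = 0.0418), 1 of 6 members was called there, and calls over all genes fell from 320 to 8. Isg15 and Usp18 had the fewest counts of the members, at 12 to 69 counts in a mouse outside the KO Tg-SwDI group, and the share of counting error in their spread was not tested.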
